A study of Homo sapiens with 6 samples.

Results

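The genes described here are the nuclear genes of the 5 respiratory chain complexes, which make adenosine triphosphate in mitochondria by oxidative phosphorylation. They were taken as the protein-coding genes whose symbols begin with NDUFA, NDUFB, NDUFC, NDUFS or NDUFV and a digit, with UQCR, with COX followed by a digit of the nuclear subunits and a letter, or with ATP5, together with SDHA, SDHB, SDHC, SDHD and CYC1. This gave 91 of the 58735 genes in the deposited table, namely 39 of complex I, 4 of complex II, 10 of complex III, 17 of complex IV and 21 of complex V.

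Complexes I and II pass electrons from NADH and from succinate to ubiquinone, complex III passes them on to cytochrome c, and complex IV passes them to oxygen. Complexes I, III and IV pump protons across the inner mitochondrial membrane, and complex V, the ATP synthase, uses the gradient to make adenosine triphosphate. Except for complex II, each holds subunits from both genomes, so nuclear subunits have to be imported and assembled with those encoded in the mitochondrion. Several complex IV subunits and the c-ring of complex V come in isoforms encoded by separate genes, some of them restricted to muscle, testis or lung.

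The RNA came from HEK293, a line derived from human embryonic kidney, in which a tensin 2 (TNS2) transgene with a substituted tyrosine was stably expressed. In the Y483E group this tyrosine was replaced by glutamate, a residue often used to imitate phosphorylation, and in the Y483F group by phenylalanine, which cannot be phosphorylated. Each group had 3 libraries, numbered 1, 4 and 5 in the labels and called replicates 1, 2 and 3 here; no untransfected or wild-type tensin 2 cells were among the samples analysed. The sample titles call the libraries biological replicates. Beyond that, the labels do not say whether a line is 1 clone, which promoter drives the transgene, or whether replicates came from separate cultures. P-values therefore measure the spread between these libraries, which may be technical.

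The libraries held between 17204498 and 23284592 reads in genes, and 1.07% to 1.14% of these lay in the 91 genes. TNS2 had 0.753, 1.04 and 1.05 FPKM (fragments per kilobase of exon, scaled to library size) in Y483E libraries, against 1.07, 1.16 and 1.16 FPKM in Y483F libraries. All Y483E values lay below all Y483F values, and all were near 1 FPKM, so they give no sign of strong transgene expression. Gene-level values show neither the substitution itself nor how much of TNS2 came from the transgene. Of 10 HEK293 markers, 6 averaged at least 1 FPKM and their sum over all 10 was 235 to 251 FPKM in Y483E and 241 to 261 FPKM in Y483F libraries, whereas NEFM and SALL4 were near 0. Liver markers summed to 0.056 to 0.147 FPKM in Y483E and 0.049 to 0.058 FPKM in Y483F libraries, with APOB and SERPINA1 at 0 reads. The 5 blood markers summed to 1.22 to 2.50 FPKM in Y483E and 1.84 to 3.79 FPKM in Y483F libraries, with HBB and PTPRC at 0, and the 5 fibroblast and endothelial markers to 0.640 to 0.722 FPKM in Y483E and 0.652 to 0.811 FPKM in Y483F libraries, with COL1A2 at 0. Reads of the mitochondrial genome made up 2.11%, 2.15% and 1.23% of Y483E libraries and 2.05%, 3.27% and 3.11% of Y483F libraries. By the chi-square distance of their counts, the closest libraries were Y483F replicates 2 and 3 (2.33 per degree of freedom), followed by replicate 1 of Y483E and replicate 1 of Y483F (3.13), so that the libraries numbered 1 resembled each other more than they did the rest of their groups.

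Transcripts of the respiratory chain were abundant in both lines, and between the lines the differences were small. Of the 91 genes, 80 had a mean of at least 1 FPKM over the 6 libraries and were tested with limma on log2(FPKM + 1). No gene passed a Benjamini-Hochberg adjusted p of 0.05 in limma, either among the 80 or among all 12833 genes tested (0.0% called), while 11 of the 80 and 1566 of the 12833 (12.2%) had an unadjusted p below 0.05. The subunit with the clearest difference was COX4I1 of complex IV, at 75.8 ± 1.23 FPKM in Y483E and 63.9 ± 2.42 FPKM in Y483F libraries (SD, n = 3 each). ATP5F1A and ATP5MD of complex V followed, both higher in Y483E, and in the other direction ATP5PO of complex V was lower.

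Levels differed far more between the genes than between the lines. ATP5F1B, the catalytic beta subunit of the ATP synthase, had the highest mean at 531 FPKM, and the 80 tested genes had a median of 36.5 FPKM. Median levels of the tested genes were 24.5 FPKM for complex I, 23.3 for complex II, 86.5 for complex III, 69.9 for complex IV and 46.8 for complex V. The deposited values divide by the summed length of all annotated exons of a gene, which for many of these short transcripts far exceeds the principal transcript; ATP5F1A has 10908 bases of annotated exon and a principal transcript of 5818 bases. Recomputed on the length of the principal transcript, the medians were 57.5, 70.2, 109, 132 and 115 FPKM for complexes I to V, so the order of the complexes depended on the length used, a comparison added after the data were seen.

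**Figure D1:**
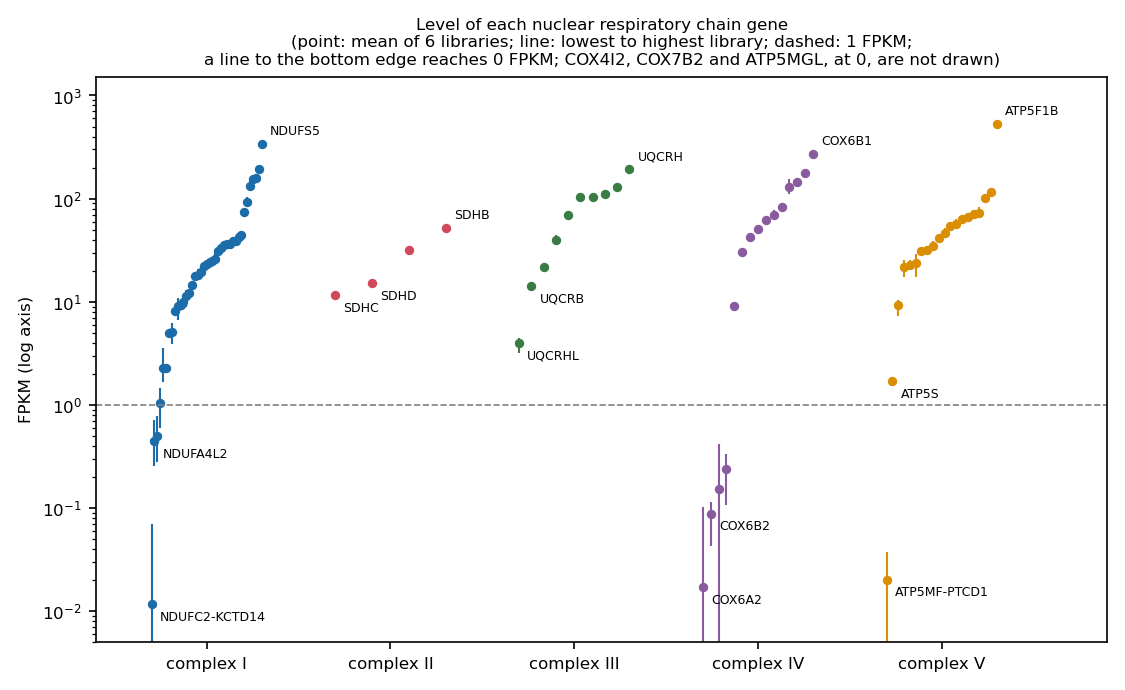
FPKM on a log axis for each gene of complexes I to V, sorted within its complex; points are means of 6 libraries, lines run from the lowest to the highest library, and the dashed line marks the 1 FPKM needed for the test. The tested genes run from 1.06 to 531 FPKM, and 6 complex IV isoforms lie below the line or, with no reads, are not drawn.

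The remaining 11 genes fell below the minimum of 1 FPKM. They were the isoforms COX4I2, COX6A2, COX6B2, COX7A1, COX7B2 and COX8C, the paralogs NDUFA4L2 and ATP5MGL, the readthrough genes NDUFC2-KCTD14 and ATP5MF-PTCD1, and the complex I core subunit NDUFV2. COX4I2, COX7B2 and ATP5MGL had no read in any library, which allows up to 3 reads in each. Nearest above the minimum were NDUFA7 at 1.06 and ATP5S at 1.71 FPKM, and nearest below it NDUFV2 at 0.50 and NDUFA4L2 at 0.447 FPKM.

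Some subunits, at low and at high levels, share much of their principal transcript with another annotated gene. On the same strand, exons of a readthrough or unnamed gene cover 82.9% of the principal transcript of NDUFV2, 75.9% of NDUFA7, 71.7% of NDUFB8, 70.3% of ATP5PO, 67.0% of NDUFA11 and 44.1% of NDUFA13. The same holds for 46.2% of ATP5MF, 34.5% of COX8A and 30.6% of COX6A1, which averaged 63.1, 131 and 50.8 FPKM over the 6 libraries. The overlapping gene averaged 0.0 FPKM at NDUFV2, ATP5PO and NDUFA11, 0.013 at NDUFB8, 0.27 at NDUFA7 and 0.96 at NDUFA13. It averaged 0.020, 0.017 and 0.051 FPKM at ATP5MF, COX8A and COX6A1. The 7 genes with the largest same-strand share of all exonic bases had a median of 0.50 FPKM (0.012 to 131), against 33.7 for the other 84. These 7 include the readthrough genes and COX6B2. How reads in shared exons were counted is not stated in the labels or notes, and its part in these levels was not tested. Of the 91 genes, 50 share exonic bases with some other gene and 45 have pseudogenes named after them, 159 in all. Pseudogenes of SDHA held 3295 reads over the 6 libraries, those of UQCRFS1 held 2041 and those of COX6A1 held 562. The pseudogene of NDUFV2 held 237 reads, more than NDUFV2 itself, which had 25, 24 and 25 reads in Y483E and 13, 38 and 30 reads in Y483F libraries. The values of these genes are uncertain, since reads may be split with such copies.

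Promoters of respiratory chain genes are known targets of NRF1, of ETS-family factors such as GABP, and of YY1, and the choice of symbols did not use promoter sequence. RefSeq windows from 250 bases before to 50 bases after the start (GRCh38.p14) matched 70 of the 91 genes. For each gene 1 window was kept, at the outermost RefSeq start for 67 of the 70, which need not be the main start. The window of NDUFA5 lies outside the annotated gene. On either strand, the NRF1 motif (GCGCA, any 1 base, then GCGC) was in 17 of the 70 windows (24.3%), against 6.28% of all 27305 promoters and 12.8% of the 8770 promoters of tested protein-coding genes. The ETS motif CCGGAAG was in 20 of the 70 (28.6%), against 10.6% of all promoters and 20.8% of those of tested genes, and the YY1 motif AAGATGG was in 16 (22.9%), against 6.04% and 7.88%. At least 1 of the 3 was in 41 of the 70 windows, against 20.4% of all promoters and 35.7% of those of tested genes. By complex, such windows were 15 of 32 for complex I, 3 of 3 for complex II, 7 of 7 for complex III, 7 of 14 for complex IV and 9 of 14 for complex V. CCAAT boxes (CCAAT, 34.3% against 35.7% and 37.3%) and TATA boxes (TATAAA, 7 of 70 windows against 12.03% and 4.79%) were searched in the same way, and median GC content was 61.0% against 58.3% and 65.7%. These shares describe letters in a window, not binding, and no test was made of them.

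Windows are shown for the genes with the clearest differences between the lines and, for contrast, for 2 with repeated motifs. They run 5′ to 3′ along the gene's strand, the capitals mark a match to the NRF1, ETS or YY1 motif, and positions count from 0 at the first base of the RefSeq start. COX4I1 (chr16:85799445-85799744, plus strand) has 1 ETS match at position 2. COX5B (chr2:97645812-97646111, plus strand) has ETS matches at -37 and -5. ATP5MD (chr10:103396426-103396725, minus strand; RefSeq symbol ATP5MK) has ETS matches at -163 and -160, which overlap on opposite strands, and at -3. ATP5PO (chr21:33915755-33916054, minus strand) has an NRF1 match at -24 and a YY1 match at 38. SDHA (chr5:218070-218369, plus strand) has 4 NRF1 matches, at -166, -117, -68 and -19. ATP5F1A (chr18:46104178-46104477, minus strand) has no match to the 3 motifs.
COX4I1: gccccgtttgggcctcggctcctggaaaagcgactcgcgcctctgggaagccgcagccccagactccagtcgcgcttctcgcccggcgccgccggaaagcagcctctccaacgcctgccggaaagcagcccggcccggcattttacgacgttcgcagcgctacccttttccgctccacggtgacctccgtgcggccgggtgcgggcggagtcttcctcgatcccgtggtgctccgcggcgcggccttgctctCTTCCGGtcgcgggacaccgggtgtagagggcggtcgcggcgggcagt
COX5B: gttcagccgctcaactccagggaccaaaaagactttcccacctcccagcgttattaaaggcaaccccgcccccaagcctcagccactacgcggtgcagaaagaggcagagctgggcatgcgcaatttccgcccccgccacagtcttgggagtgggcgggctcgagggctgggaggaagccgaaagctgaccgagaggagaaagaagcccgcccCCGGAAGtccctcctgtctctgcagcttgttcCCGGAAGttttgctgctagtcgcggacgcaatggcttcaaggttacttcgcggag
ATP5MD: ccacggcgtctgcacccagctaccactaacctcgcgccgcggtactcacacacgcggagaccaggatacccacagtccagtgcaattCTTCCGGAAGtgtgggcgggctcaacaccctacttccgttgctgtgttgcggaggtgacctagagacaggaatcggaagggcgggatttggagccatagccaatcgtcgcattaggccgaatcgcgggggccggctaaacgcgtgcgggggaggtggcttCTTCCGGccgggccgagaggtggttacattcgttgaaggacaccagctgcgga
ATP5PO: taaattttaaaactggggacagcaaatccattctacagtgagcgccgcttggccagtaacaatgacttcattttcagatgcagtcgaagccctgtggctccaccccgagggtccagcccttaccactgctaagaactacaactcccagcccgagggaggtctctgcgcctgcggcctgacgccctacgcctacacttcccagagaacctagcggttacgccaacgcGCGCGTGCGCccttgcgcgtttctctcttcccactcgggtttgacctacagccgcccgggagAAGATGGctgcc
SDHA: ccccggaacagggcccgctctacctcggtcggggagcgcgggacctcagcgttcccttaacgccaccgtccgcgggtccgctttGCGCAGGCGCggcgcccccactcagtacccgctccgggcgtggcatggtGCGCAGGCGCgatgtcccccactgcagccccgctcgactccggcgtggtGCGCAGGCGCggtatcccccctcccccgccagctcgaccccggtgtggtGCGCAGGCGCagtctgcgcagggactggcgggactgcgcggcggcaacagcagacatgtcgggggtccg
ATP5F1A: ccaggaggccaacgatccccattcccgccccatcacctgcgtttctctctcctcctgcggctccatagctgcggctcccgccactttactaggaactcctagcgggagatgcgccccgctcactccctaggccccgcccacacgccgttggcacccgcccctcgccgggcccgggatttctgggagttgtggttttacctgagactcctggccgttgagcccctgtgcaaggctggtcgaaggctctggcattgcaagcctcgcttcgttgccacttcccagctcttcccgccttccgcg

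**Figure D2:**
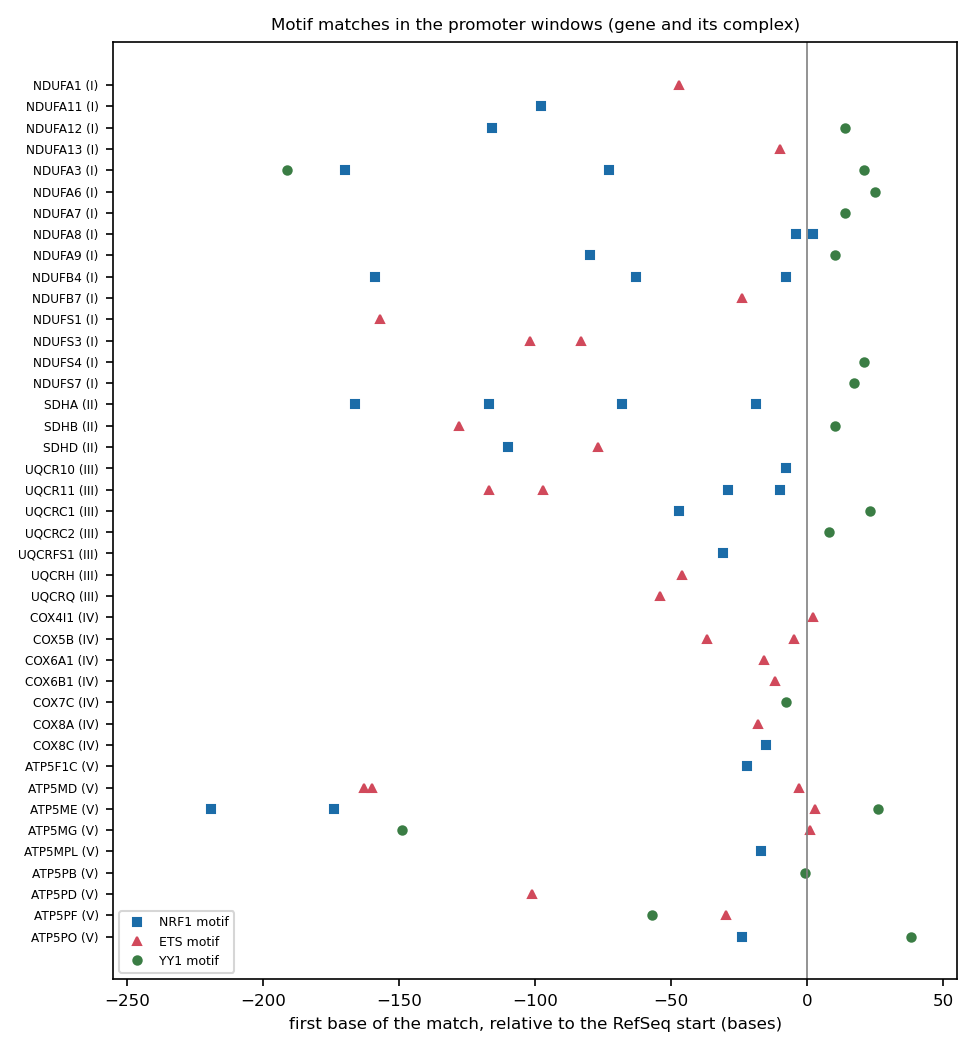
Position of the first base of each NRF1, ETS and YY1 motif match, in bases from the RefSeq start (vertical line at 0), for the 41 genes with a match, ordered by complex. Of the 17 YY1 matches, 15 lie from 60 bases before the start onwards, as do 15 of 25 ETS and 13 of 26 NRF1 matches.

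Complex I, the entry point for electrons from NADH, contributed 36 tested genes, of which 23 were higher and 13 lower in Y483E, with a median log2 difference of 0.018, or 0.029 without Y483F replicate 1. Its 6 tested core subunits, which carry the flavin and the iron-sulfur clusters, had a median log2 difference of 0.023, and the 29 accessory subunits had a median of 0.011. NDUFS5, an accessory subunit and the most abundant of the complex, had 335, 363 and 354 FPKM in Y483E libraries, against 338, 318 and 333 FPKM in Y483F libraries. NDUFB7, another accessory subunit of the membrane arm, had 188, 205 and 209 FPKM in Y483E, against 182, 183 and 187 FPKM in Y483F libraries. The groups overlapped for NDUFS5 and did not for NDUFB7, whose log2 difference of 0.12 ± 0.051 (SE) had an adjusted p of 0.402 in limma.

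NDUFA4 carries a complex I name but is a subunit of complex IV, and it had the largest positive difference among genes so named. It measured 24.2, 23.2 and 22.8 FPKM in Y483E libraries, against 22.1, 20.7 and 20.5 FPKM in Y483F libraries. All Y483E libraries lay above all Y483F libraries, with a log2 difference of 0.14 ± 0.047 (SE; limma adjusted p = 0.333). Its paralog NDUFA4L2, known as a gene induced by hypoxia, had 13, 47 and 31 reads in Y483E and 15, 17 and 26 reads in Y483F libraries. At the other end stood NDUFA7, an accessory subunit, with 0.594, 1.21 and 0.653 FPKM in Y483E libraries, against 1.45, 1.42 and 1.01 FPKM in Y483F libraries. Here the groups overlapped, and the log2 difference of -0.34 ± 0.15 (SE) had an adjusted p of 0.422 in limma.

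Complex II, the succinate dehydrogenase that also works in the citric acid cycle and has no mitochondrially encoded subunit, showed 2 genes higher and 2 lower. SDHB, the iron-sulfur subunit, had 53.5, 52.7 and 54.3 FPKM in Y483E libraries, against 54.0, 49.2 and 49.9 FPKM in Y483F libraries. SDHA, the flavoprotein, had 31.5, 30.2 and 31.3 FPKM in Y483E, against 33.6, 30.1 and 32.1 FPKM in Y483F libraries, which is the lowest log2 difference of the complex at -0.041 ± 0.050 (SE). SDHD, a membrane anchor, was the highest at 0.085 ± 0.049 (SE), with 16.0, 15.2 and 15.8 FPKM in Y483E and 15.6, 14.5 and 14.2 FPKM in Y483F libraries. For each of these 3 genes the 2 groups overlapped.

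Complex III, the cytochrome bc1 complex, had 7 genes higher and 3 lower in Y483E, with a median log2 difference of 0.035. That median was 0.012 without Y483F replicate 3, 0.019 without replicate 2 of either line and 0.056 without Y483F replicate 1. UQCRH, the hinge protein that contacts cytochrome c1, had 188, 205 and 196 FPKM in Y483E libraries, against 192, 188 and 189 FPKM in Y483F libraries. UQCRHL, a copy of UQCRH so similar that reads may be assigned to either, had 4.002, 4.49 and 3.98 FPKM in Y483E, against 4.04, 3.21 and 4.08 FPKM in Y483F libraries. UQCRQ, the ubiquinone-binding small subunit, had 127, 143 and 143 FPKM in Y483E libraries, against 120, 123 and 129 FPKM in Y483F libraries. All 3 genes overlapped between the groups, UQCRQ least, with 2 of 3 Y483E libraries above all Y483F libraries and a log2 difference of 0.15 ± 0.060 (SE; limma adjusted p = 0.391). UQCRC2, a core protein that holds the complex together, was lowest at -0.078 ± 0.063 (SE), with 40.2, 37.7 and 37.9 FPKM in Y483E and 44.7, 39.0 and 38.9 FPKM in Y483F libraries.

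Complex IV, cytochrome c oxidase, held the member with the largest positive difference. COX4I1 (ENSG00000131143; chr16:85798633-85807044 on GRCh38, plus strand) encodes the main isoform of subunit 4, an early assembly partner of the mitochondrially encoded COX1. It had 74.6, 77.1 and 75.8 FPKM in Y483E libraries, against 66.6, 62.1 and 62.9 FPKM in Y483F libraries. Every Y483E library lay above every Y483F library, and the gap between the groups was wider than the range within either. The log2 difference was 0.24 ± 0.043 (SE, 95% interval 0.14 to 0.34), with an adjusted p of 0.257 in limma and 0.117 in edgeR on recovered reads. In the authors' deposited table the log2 fold change of COX4I1 is 0.25 with an adjusted p of 0.0022. COX4I2, the isoform known from lung and from responses to low oxygen, had no reads, so that COX4I1 was the only subunit 4 isoform detected.

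The isoform pairs of complex IV were settled the same way in both lines. COX6A1 had 46.3, 55.7 and 49.5 FPKM in Y483E and 45.1, 53.4 and 55.03 FPKM in Y483F libraries, whereas COX6A2, the heart and muscle isoform, had 1 read in all. COX6B1 was the most abundant complex IV gene, at 260, 287 and 289 FPKM in Y483E and 277, 260 and 267 FPKM in Y483F libraries, beside 3 to 8 reads per Y483E library and 6 to 9 per Y483F library for COX6B2, the testis isoform. COX7A2 had 58.7, 67.7 and 67.0 FPKM in Y483E and 59.9, 60.6 and 61.6 FPKM in Y483F libraries, and COX7A1, its muscle counterpart, had at most 0.332 FPKM. For each of these main isoforms the groups overlapped, and no isoform below the minimum came near its counterpart.

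COX7A2L, which takes part in the assembly of supercomplexes of complexes III and IV, had 9.24, 9.63 and 9.63 FPKM in Y483E and 9.87, 8.14 and 8.58 FPKM in Y483F libraries. COX7B had 39.7, 43.7 and 44.5 FPKM in Y483E and 46.9, 42.0 and 40.5 FPKM in Y483F libraries, while COX7B2 had no reads. COX8A had 122, 154 and 142 FPKM in Y483E and 110, 133 and 125 FPKM in Y483F libraries, and COX8C had 0 to 4 reads per library. In these 3 genes replicate 1 of each line lay outside the range of its replicates 2 and 3. COX5A, which binds early to the growing complex and is the second most abundant of its genes, had 178, 177 and 186 FPKM in Y483E and 185, 173 and 173 FPKM in Y483F libraries. In complex IV, the difference was positive in 8 tested genes and negative in 3, and its median was 0.064 (log2), or 0.10 without Y483E replicate 1 and 0.041 without Y483F replicate 2.

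**Figure D3:**
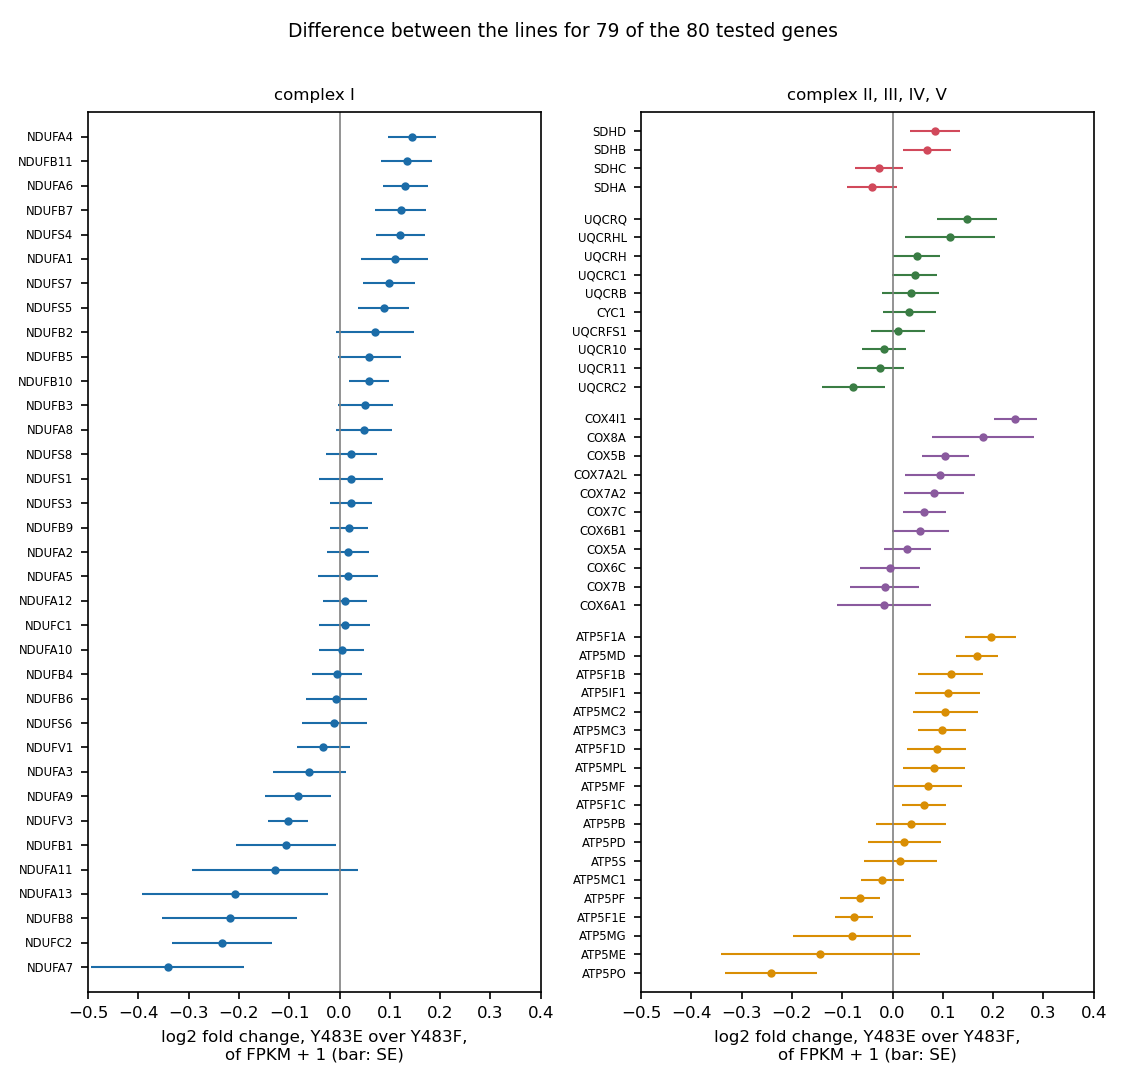
Log2 fold change of FPKM + 1, Y483E over Y483F, with its SE from limma, for 79 of the 80 tested genes, sorted within each complex. Estimates run from -0.34 for NDUFA7 to 0.24 for COX4I1, and none passed the adjusted threshold.

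Complex V, the ATP synthase, combines a catalytic F1 head with a membrane part that holds the c-ring, and stalks join them. ATP5F1A (ENSG00000152234; chr18:46080248-46104334 on GRCh38, minus strand), the alpha subunit of the head, had 59.2, 56.3 and 59.7 FPKM in Y483E libraries, against 54.0, 49.05 and 49.7 FPKM in Y483F libraries. The groups did not overlap, and the log2 difference was 0.20 ± 0.051 (SE; limma adjusted p = 0.272). The authors' deposited table gives a log2 fold change of 0.20 and an adjusted p of 0.0496 for ATP5F1A. ATP5F1B, its catalytic partner, had 556, 546 and 554 FPKM in Y483E and 556, 480 and 494 FPKM in Y483F libraries, so that the groups overlapped through Y483F replicate 1 alone.

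ATP5MD (ENSG00000173915; chr10:103389041-103396492 on GRCh38, minus strand), a small membrane subunit also known as DAPIT, had 120, 126 and 119 FPKM in Y483E libraries, against 111, 106 and 108 FPKM in Y483F libraries. Its groups did not overlap, and the log2 difference was 0.17 ± 0.042 (SE; limma adjusted p = 0.265). ATP5PO (ENSG00000241837; chr21:33903453-33915980 on GRCh38, minus strand), the stalk subunit that confers sensitivity to oligomycin, had 17.5, 22.6 and 20.04 FPKM in Y483E libraries, against 22.5, 25.4 and 23.5 FPKM in Y483F libraries. Its groups overlapped slightly, and the log2 difference was -0.24 ± 0.091 (SE; limma adjusted p = 0.365).

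The 3 c-ring genes encode the same mature protein behind different import sequences, and each was expressed. ATP5MC2 made up 44.8 ± 1.35% of their summed FPKM in Y483E and 43.5 ± 1.605% in Y483F libraries (SD, n = 3 each). ATP5MC1 made up 31.1 ± 0.439% in Y483E and 33.0 ± 1.45% in Y483F, and ATP5MC3 24.1 ± 0.927% in Y483E and 23.5 ± 1.26% in Y483F libraries. The shares of ATP5MC2 and ATP5MC3 differed between the lines by less than the spread between replicates. That of ATP5MC1 was 31.5, 30.7 and 31.2% in Y483E, against 32.02, 34.7 and 32.3% in Y483F libraries, all 3 lower in Y483E, and no test was made of it. In FPKM, ATP5MC1 had 39.7, 41.9 and 41.8 in Y483E and 40.7, 43.1 and 41.4 in Y483F libraries. ATP5MC2 had 54.6, 62.9 and 60.4 FPKM in Y483E and 54.8, 52.3 and 58.0 FPKM in Y483F libraries. ATP5MC3 had 31.6, 31.9 and 31.98 FPKM in Y483E and 31.6, 28.8 and 28.7 FPKM in Y483F libraries, and of the c-ring genes its groups alone did not overlap. Over the 19 tested genes of the complex, 13 were higher and 6 lower, with a median log2 difference of 0.062. Without Y483E replicate 2 this median was 0.023, and without Y483F replicate 3 it was 0.029.

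**Figure D4:**
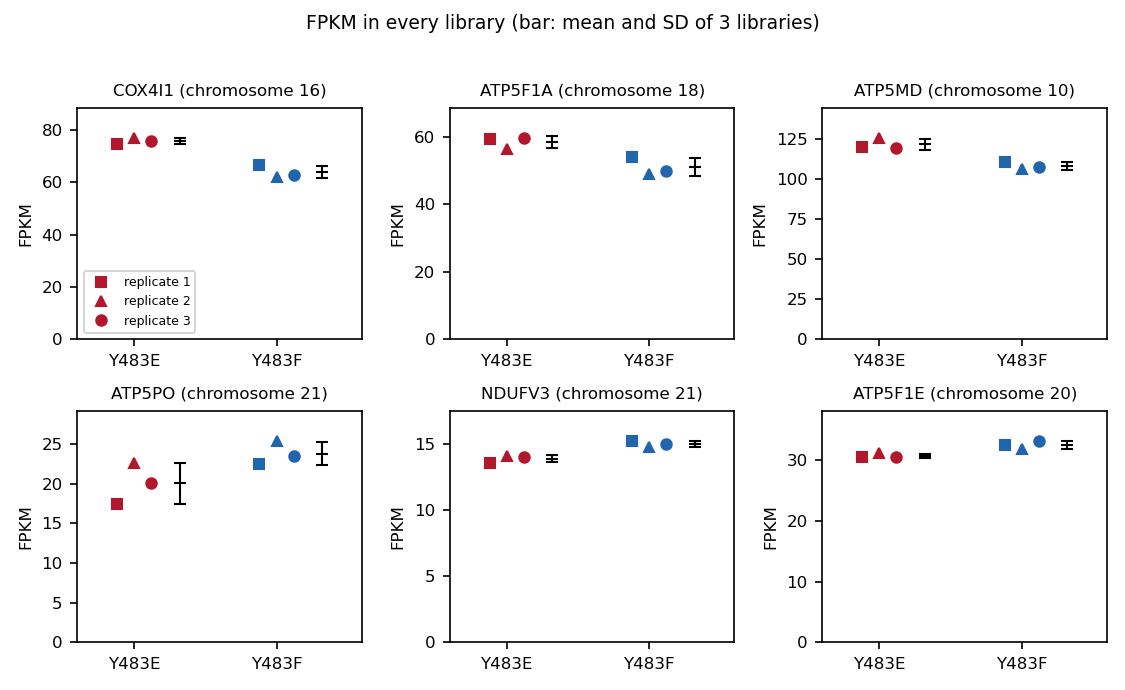
FPKM of 6 genes in every library, Y483E left and Y483F right, from an axis that starts at 0; marker shapes give the replicate, and black bars the mean and SD of 3 libraries. COX4I1, ATP5F1A and ATP5MD lie higher in Y483E without overlap, NDUFV3 and ATP5F1E lower without overlap, and ATP5PO overlaps slightly.

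Over the 80 tested genes, 53 were higher and 27 lower in Y483E, with a median log2 difference of 0.027, or 0.058 without Y483F replicate 1. Of all 12833 tested genes 52.8% were higher, with a median of 0.007, and genes averaging at least 5 FPKM had a median of 0.014. Summed over all 91 genes, FPKM averaged 5243 ± 128 in Y483E and 5012 ± 62.2 in Y483F libraries (SD, n = 3 each), and in bulk RNA a different mix of cells in a culture and a different amount of RNA per cell cannot be told apart. All 3 Y483E libraries lay above all 3 Y483F libraries for 12 of the 80 genes and below them for 4, beside 9.72% and 7.37% of all tested genes. Named after their values were seen, the 12 were COX4I1, COX5B, ATP5F1A, ATP5MD, ATP5MC3, NDUFA4, NDUFA6, NDUFB7, NDUFB10, NDUFB11, NDUFS4 and NDUFS7, and the 4 were NDUFA9, NDUFV3, ATP5F1E and ATP5PF. Unadjusted limma p-values below 0.05 came from 9 genes higher and 2 lower in Y483E, beside 6.51% and 5.7% of all tested genes.

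In count tests on the same libraries, edgeR called 0 of the 82 respiratory chain genes it tested and 7 of 15992 genes in all (0.0438%), with 10 of the 82 at an unadjusted p below 0.05, beside 13.4% of all genes. DESeq2 called COX4I1 and ATP5F1A among 126 of 31210 genes (0.404%). The authors' deposited table lists 1652 genes with an unadjusted p below 0.05, of which 8 are respiratory chain genes. COX4I1, ATP5F1A, ATP5MD, UQCRQ, NDUFB11 and NDUFA4 are listed there as higher in Y483E, and ATP5PO and NDUFC2 as lower, beside 1.31% and 1.5% of all 58735 genes listed in these directions. Of the 8, COX4I1 and ATP5F1A have an adjusted p below 0.05 in the authors' deposited table, as do 126 genes in all (0.215%). Shares for the authors' table are of all 58735 genes. Of these, 12833 averaged at least 1 FPKM, as did 80 of the 91 respiratory chain genes, so the bases are unlike.

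The difference between the lines depended on which libraries were compared. Between the replicates numbered 1, the median log2 difference of the 80 genes was -0.013 and 34 of them were higher in Y483E. Between replicates 2 and 3 of each line the median was 0.066 and 57 of the 80 were higher. Over all 12833 tested genes the median was -0.0043 between the replicates numbered 1, with 6221 higher. It was 0.015 between replicates 2 and 3, with 7013 higher. By complex, the medians in replicates 2 and 3 were 0.026, 0.046, 0.044, 0.13 and 0.084 for complexes I to V, against 0.0033, -0.017, -0.025, -0.017 and -0.036 between the replicates numbered 1. In replicates 2 and 3 alone, the groups did not overlap in 41 of the 80 genes in the higher direction and in 12 in the lower, beside 33.5% and 26.8% of all tested genes. The labels do not name a batch. Fits with a term for library number 1 are given in the closing section, and the part of the library number in these differences was not itself tested.

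Within replicates 2 and 3, edgeR called 18 of the 82 respiratory chain genes at an adjusted p of 0.05, of which 17 rose in Y483E, beside 7.07% of all 16308 genes tested, and 1 fell, beside 7.98%. Among the 7473 limma-tested genes with at least 5 FPKM, where most of the respiratory chain lies, the same fit called 875 higher and 748 lower. The 17 were 4 genes named for complex I (NDUFA4, NDUFB7, NDUFB11, NDUFS5), 1 of complex III (UQCRQ), 6 of complex IV (COX4I1, COX5B, COX6B1, COX7A2, COX7A2L, COX8A) and 6 of complex V (ATP5F1A, ATP5F1B, ATP5MC2, ATP5MC3, ATP5MD, ATP5MF), with log2 rises of 0.12 to 0.29. COX4I1 had the largest rise, at 0.29 ± 0.036 (SE), and ATP5PO was the gene that fell, by 0.20 on the log2 scale. Of the 17, 10 were also higher in Y483E between the replicates numbered 1, as were 6221 of all 12833 tested genes. NDUFS5, COX6B1, COX7A2, COX7A2L, ATP5F1B, ATP5MC2 and ATP5MF were lower in Y483E between those replicates. In the same 4 libraries limma called COX4I1 and ATP5F1A, among 705 of 12936 genes (5.45%).

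**Figure D5:**
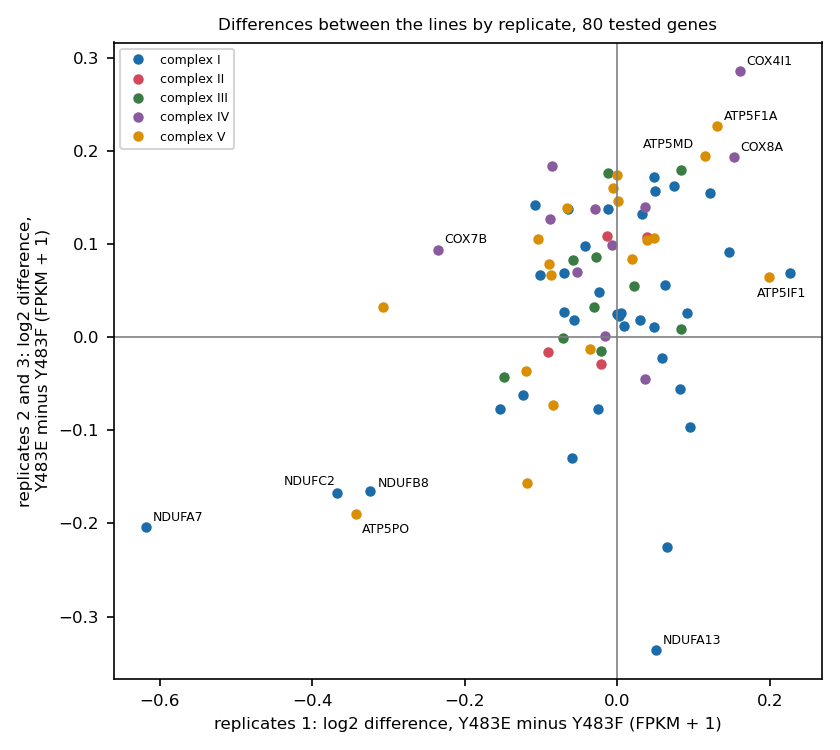
Log2 difference of FPKM + 1, Y483E minus Y483F, between the replicates numbered 1 (horizontal) and between the means of replicates 2 and 3 (vertical), for the 80 tested genes coloured by complex. COX4I1, ATP5F1A, ATP5MD and COX8A are high on both axes and NDUFA7, NDUFC2, NDUFB8 and ATP5PO low on both, while 57 points lie above the horizontal line and 34 to the right of the vertical line.

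Some subunits followed the library number more than the line, a pattern looked for after the values were seen. In 14 of the 80 genes (17.5%, against 9.78% of all tested genes) both replicates numbered 1 lay below the other 4 libraries. Among them were COX6A1, COX7A2 and COX8A of complex IV, UQCR10 and UQCR11 of complex III, ATP5ME, ATP5MF and ATP5MPL of the membrane part of complex V, and NDUFA11, NDUFA13 and NDUFB8 of complex I. In 10 genes (12.5%, against 15.9% of all tested genes) both lay above the other 4, among them ATP5F1B, ATP5PB, NDUFS1, UQCRC2, UQCRFS1 and CYC1. ATP5ME, a membrane subunit and 1 of the 14, had 17.5, 28.4 and 21.3 FPKM in Y483E and 19.1, 29.3 and 25.9 FPKM in Y483F libraries. The lowest value of each group was its replicate 1. Size varied between the 14 genes, with a narrower gap in COX7A2.

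On chromosomes 18, 20 and 21 most tested genes went in 1 direction. Of all tested genes, 163 of 182 on chromosome 18 were higher in Y483E (median log2 difference 0.12), 71 of 349 on chromosome 20 (median -0.095) and 17 of 139 on chromosome 21 (median -0.14). ATP5F1A, on chromosome 18, was higher, while ATP5F1E on chromosome 20 and NDUFV3, ATP5PF and ATP5PO on chromosome 21 were all lower. ATP5F1E, the epsilon subunit of the F1 head, had 30.5, 31.1 and 30.6 FPKM in Y483E and 32.4, 31.9 and 33.1 FPKM in Y483F libraries. NDUFV3, an accessory subunit of the NADH-binding arm, had 13.6, 14.1 and 14.0 FPKM in Y483E and 15.2, 14.8 and 15.03 FPKM in Y483F libraries. ATP5PF, coupling factor 6 of the stalk, had 62.5, 65.1 and 66.8 FPKM in Y483E and 68.0, 67.1 and 68.2 FPKM in Y483F libraries. Of the 4 genes that did not overlap in the lower direction, 3 lie on these chromosomes, and the part of chromosome copy number was not tested. Outside the 3 chromosomes, 75 genes had a median log2 difference of 0.033, with 52 higher and 23 lower and with 11 and 1 that did not overlap. Chromosome 13, where 70 of 233 tested genes were higher, holds no tested respiratory chain gene. On chromosome 22, where 132 of 333 were higher, 1 of 2 such genes was higher, NDUFA6, whose groups did not overlap.

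Genes that build, feed or regulate the complexes did not pass the threshold in limma in any list. Of 19 genes on the complex I list, which are assembly factors and the acyl carrier subunit NDUFAB1, 7 were higher and 12 lower in Y483E (median log2 difference -0.030). All 4 complex II factors were higher, with a median of 0.11, while the 6 complex III factors had 2 higher, 4 lower and a median of -0.034. The 24 tested complex IV factors divided into 11 higher and 13 lower (median -0.0022), and the 5 complex V factors into 4 higher and 1 lower (median 0.026), so the lists did not share a direction. In replicates 2 and 3, edgeR called NDUFAF3, TTC19, SURF1 and ATPAF1 higher and BCS1L, UQCC1 and SCO1 lower in Y483E, out of 19, 4, 6, 25 and 5 tested in the 5 lists and beside 7.07% and 7.98% of all genes in that fit. NDUFAF3, a complex I assembly factor, had 32.7, 32.1 and 32.1 FPKM in Y483E libraries, against 29.1, 26.3 and 26.6 FPKM in Y483F libraries, with no overlap between the groups (log2 difference 0.24 ± 0.048, SE; limma adjusted p = 0.257). BCS1L, which inserts the Rieske protein into complex III, had 19.6, 18.6 and 16.7 FPKM in Y483E, against 18.01, 21.2 and 21.1 FPKM in Y483F libraries.

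Cytochrome c, the carrier between complexes III and IV, is encoded by CYCS, which had 68.8, 64.6 and 65.3 FPKM in Y483E libraries, against 74.8, 67.1 and 65.3 FPKM in Y483F libraries. Of 13 tested regulators of respiratory gene transcription, 6 were higher and 7 lower, with a median log2 difference of -0.0006. NRF1 had 8.70, 8.03 and 7.77 FPKM in Y483E and 8.10, 7.69 and 8.32 FPKM in Y483F libraries, and TFAM, which packages and transcribes the mitochondrial genome, 43.98, 39.9 and 40.9 FPKM in Y483E and 48.7, 41.9 and 40.8 FPKM in Y483F libraries. The groups overlapped for CYCS, NRF1 and TFAM. GABPA, the DNA-binding part of GABP, had 21.2, 18.5 and 18.2 FPKM in Y483E, against 25.3, 21.2 and 21.9 FPKM in Y483F libraries, with a log2 difference of -0.22 ± 0.083 (SE; limma adjusted p = 0.360), and its groups overlapped by less than the rounding of these values. GABPA lies on chromosome 21, where 122 of 139 tested genes were lower in Y483E, and the part of copy number was not tested. In replicates 2 and 3, edgeR called 3 of the 14 regulators it tested lower in Y483E, GABPA and the coactivators PPRC1 and PPARGC1B, beside 7.98% of all genes.

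The 13 mitochondrially encoded subunits, which join the nuclear ones in complexes I, III, IV and V and are made in the organelle, were measured beside them. All 13 were lower in Y483E, with a median log2 difference of -0.69 over the 6 libraries, none past the threshold in limma. Between the replicates numbered 1 their median was 0.12, and between replicates 2 and 3 it was -1.11, where edgeR called all 13 lower. MT-CO1, the catalytic subunit of complex IV that COX4I1 joins, had 2964, 2995 and 1653 FPKM in Y483E libraries, against 2720, 4775 and 4621 FPKM in Y483F libraries. The groups overlapped, and Y483E replicate 3 was the lowest library while Y483F replicates 2 and 3 were the highest.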

How the data were processed

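Per the labels' protocols, RNA was selected with poly-T beads; whether libraries were stranded is unclear. The submitters' processing notes list, without roles, featureCounts 1.5.0-p3, DESeq, DESeq2, StringTie 1.3.3b and HISAT2 2.0.5, with a build not given in the sources used here. GENCODE 29 positions on GRCh38 were those of 58690 of the 58735 genes. The authors deposited FPKM per gene, and a comparison of 1652 genes with read counts, signal scaled by the authors' size factors, log2 fold changes and the authors' p-values. The authors' FPKM use a scaled library total, not the sum of reads; multiplying back gave whole reads, within 0.01, for 100% of values above 0.

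Differences were tested two-sided with limma 3.58.1 (trend) on log2(FPKM + 1), a scale that understates changes of low genes, where the mean reached 1 FPKM, adjusting over all genes. edgeR 4.0.16 (quasi-likelihood) and DESeq2 1.42.0 used the recovered counts; scripts were tested on simulated data. Other alternatives changed the pseudocount, filter, scaling, weights and libraries. Library values were given for genes past a threshold, the 2 most abundant and the extreme differences of each complex, and isoform sets. Genes outside this rule were shown too, among them ATP5ME, NDUFV2, NDUFV3, ATP5F1E and ATP5PF. Of the assembly genes that edgeR called in replicates 2 and 3, only NDUFAF3 and BCS1L were shown with library values. The genes and lists were chosen with earlier results of these data known. The interval of COX4I1 covers the spread between these libraries, which may be technical, and the floor of 3 reads covers counting error only. A gene that is counted among those tested is not reported here by name.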

Additional observations from a re-analysis of the deposited data

How the results depend on the processing

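In limma, no gene was called with any other pseudocount, filter, scaling, trend or batch term, or without any 1 library. Array weights called 1888 genes (14.7%) with 8 respiratory chain genes, replicates 2 and 3 alone 705 with 2, edgeR 7 with 0 and DESeq2 126 with 2. In edgeR, 14 genes were called without TMM, 526 (2 of the respiratory chain) without the filter, 169 (1) with a term for library number 1, 2454 (18) in replicates 2 and 3 alone and 126 (2) in DESeq2. Leaving out 1 library gave 1 to 1000 genes and 0 to 3 of the respiratory chain; without Y483F replicate 1 the counts were 1000 and 3, and without Y483E replicate 1 they were 174 and 1. The cause was not tested.

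The median log2 difference of the 80 genes was 0.059 with array weights, 0.066 in replicates 2 and 3 alone and 0.023 to 0.058 without 1 library, highest without Y483F replicate 1; that of complex IV was 0.13 in replicates 2 and 3 alone. COX7B turned positive with array weights (0.079), in replicates 2 and 3 alone (0.094) and in some fits without 1 library (-0.058 to 0.045). ATP5MC1 (-0.038 to 0.0044) and COX6A1 (-0.10 to 0.042) changed sign in such fits alone. Of the 26 tested genes chosen by the naming rule, the other 23 kept their direction in every alternative run, and 11 values passed the threshold only under an alternative.

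Same-numbered libraries deviated from their group means with correlations over 12833 genes of 0.056, 0.14 and -0.095, so the replicate numbers were not taken to pair the libraries; over the respiratory chain genes alone they were 0.60, 0.58 and 0.12. With a replicate block, limma called 0 genes and edgeR 6, none of the respiratory chain, and the median difference stayed at 0.027. Over all genes, not every library correlated best with its own number. Over the respiratory chain genes each Y483E library did, but Y483F replicate 3 did not (0.27 with Y483E replicate 2). Depth limits the isoforms below 1 FPKM, where no read seen still permits up to 3 per library.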
